A study of Homo sapiens with 2 samples.

Results

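The genes described here are 33 genes of cholesterol and fatty acid synthesis. They were chosen by symbol from a list of regulators of the sterol response, enzymes of the mevalonate and sterol pathway, sterol transporters and enzymes of fatty acid synthesis and desaturation. All 33 were found, each as 1 entry, among the 60527 genes of the deposited expression table. RNA came from 2 cultures of SK-MEL-2, an established human melanoma line, grown in MEM medium with fetal bovine serum. Treatment lasted 48 h, with the solvent DMSO in one culture and with 1.75 µM of JNJ-7706621 in the other. The compound is a small molecule known to inhibit cyclin-dependent kinases and Aurora kinases. One library per group was analysed, so no difference below has a replicate check, and no p-value was computed.

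Cells make cholesterol from acetyl-CoA through mevalonate, isoprenoid phosphates, squalene and lanosterol, and they make fatty acids from the same precursor. Both routes are switched on by the SREBP transcription factors. These sit in the endoplasmic reticulum membrane with the escort protein SCAP, held there by INSIG proteins when sterol is plentiful, and move to the Golgi to be cleaved when sterol runs low. Dividing cells need both products for new membrane, and serum lipoproteins supply part of the cholesterol.

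Library totals recovered from the values were 23377161 reads (DMSO) and 22817719 reads (JNJ-7706621). Levels are in FPKM, reads scaled to exon length and library total, which allows genes to be compared per length. Ratios are FPKM with JNJ-7706621 over FPKM with DMSO. The range in parentheses after a ratio is its 95% counting interval, which covers counting error only and not the spread between cultures. A log2 difference is log2(FPKM + 1) with JNJ-7706621 minus the same with DMSO, which understates differences of low genes. A gene is called measured where its FPKM averaged 1 or more over both libraries. Of the melanocyte markers, TYR and S100B had 0 reads in both libraries, SOX10 and DCT had 1 read with DMSO and 0 with JNJ-7706621, and 2 of 8 (MITF and PMEL) were measured. The epithelial markers KRT8, KRT18, KRT19, EPCAM and CDH1 were all measured, with summed levels of 1962 FPKM with DMSO and 1979 FPKM with JNJ-7706621. The libraries are therefore named here by their labels, and not as pigment cells. None of 18 markers of fibroblasts, immune cells, endothelium, adipocytes and hepatocytes was measured.

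Most genes of the sterol branch stood slightly lower with JNJ-7706621, the first enzymes of fatty acid synthesis stood higher, and the desaturase FADS1 had the largest difference of the measured members. Of the 33 members 31 were measured, and the other 2, CYP51A1 and ABCA1, had mean levels below 1 FPKM. By a 2-fold rule (a log2 difference of 1 or more in size), 0 of the 31 were higher and 0 lower, where 2.39% and 1.36% of all 13241 measured genes were. By a 1.5-fold rule 0 were higher, against 8.53% of all measured genes, and 1 was lower (3.23%), against 6.77%. At these settings the shares past either rule were thus at or under those of all genes. Within these small differences, 21 of 31 members (67.7%) lay below 0, against 50.4% of all measured genes, and 10 lay above 0, against 49.6%. The counting interval lay below 1 for 17 members (54.8%), against 33.2% of measured genes with recovered reads, and above 1 for 7 members (22.6%), against 32.8%. More reads give a narrower interval, and 22 of 31 members averaged at least 5 FPKM, against 7057 of 13241 measured genes. All members are protein-coding, as were 10167 of the measured genes, so these interval shares compare unlike sets. The median log2 difference of the members was -0.15, beside -0.0032 for all measured genes. For scale, the housekeeping gene GAPDH had a ratio of 0.965 (0.958 to 0.973) and ACTB, the gene of cytoplasmic actin, one of 0.746 (0.736 to 0.756). In bulk RNA, a smaller share of cells with a transcript and less transcript per cell cannot be told apart.

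**Figure D1:**
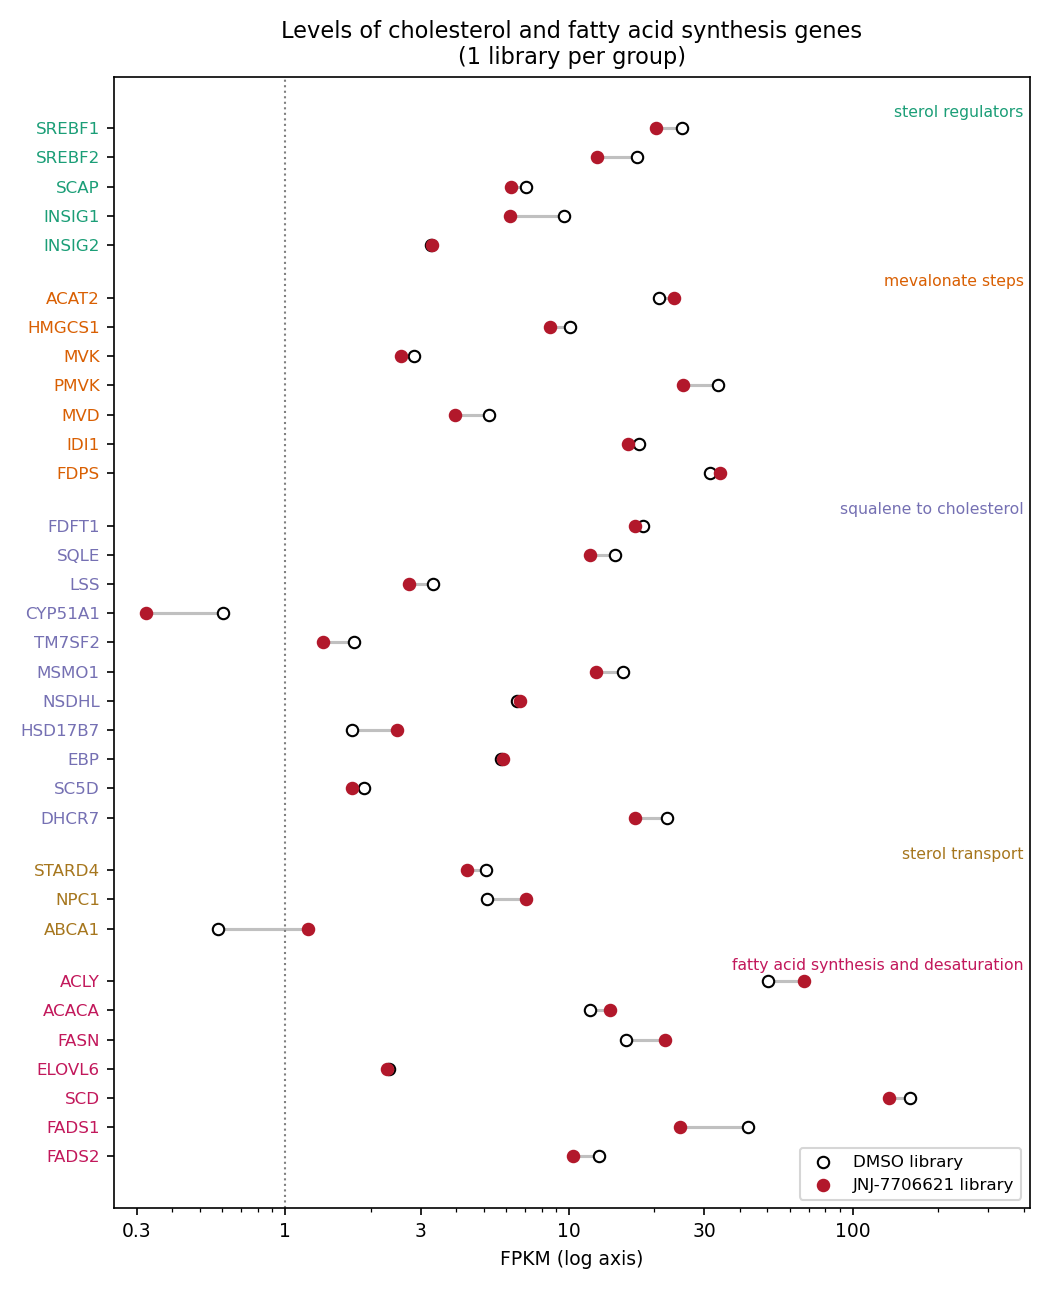
FPKM of the 33 genes on a log axis, with open points for the DMSO library and filled points for the JNJ-7706621 library, grouped and coloured by role; the dotted line marks 1 FPKM. SCD stands highest in both libraries, at 159 and 135 FPKM, and CYP51A1 and ABCA1 are the 2 genes whose mean falls under 1 FPKM.

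Promoter windows were looked up because SREBP acts on DNA together with the CCAAT-binding factor NF-Y and with Sp1. RefSeq windows on GRCh38.p14, reaching from 250 bases before to 50 after the transcription start, were found for 29 of the 33 members. ACAT2, FDFT1, SQLE and FASN had no entry. Both strands were searched for TCACNCCAC, a core of the sterol regulatory element, for CCAAT, the NF-Y motif, and for GGGCGG, the Sp1 motif, and matches of different motifs overlapped 0 times in the members' windows. Upstream sequence without exons of protein-coding genes is shown for 5 members, 5′ to 3′, with motif matches in capitals (CCAAT reads ATTGG and GGGCGG reads CCGCCC on the other strand).

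SREBF2 is shown because its window was the 1 among the members with the sterol element (chr22:41832855-41833078, plus strand), and INSIG1 because it had the lowest ratio of the regulators (chr7:155297628-155297775, plus strand). MVD (chr16:88663162-88663341, minus strand) and MSMO1 (chr4:165327419-165327622, plus strand) stand for sterol enzymes with several NF-Y motifs and lower levels with JNJ-7706621, and ACLY (chr17:41919023-41919272, minus strand) for a gene with the same motifs and a higher level.
SREBF2: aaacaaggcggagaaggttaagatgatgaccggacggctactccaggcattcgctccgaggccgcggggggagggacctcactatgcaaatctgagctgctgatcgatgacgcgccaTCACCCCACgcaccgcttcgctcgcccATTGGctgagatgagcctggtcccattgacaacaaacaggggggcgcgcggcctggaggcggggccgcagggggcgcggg
INSIG1: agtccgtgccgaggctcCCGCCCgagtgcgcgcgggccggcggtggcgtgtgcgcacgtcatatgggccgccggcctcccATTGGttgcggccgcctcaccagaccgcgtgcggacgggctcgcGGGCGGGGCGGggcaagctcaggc
MVD: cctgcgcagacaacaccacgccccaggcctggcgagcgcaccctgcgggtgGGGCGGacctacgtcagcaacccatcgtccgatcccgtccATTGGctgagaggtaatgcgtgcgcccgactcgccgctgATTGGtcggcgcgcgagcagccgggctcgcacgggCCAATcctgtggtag
MSMO1: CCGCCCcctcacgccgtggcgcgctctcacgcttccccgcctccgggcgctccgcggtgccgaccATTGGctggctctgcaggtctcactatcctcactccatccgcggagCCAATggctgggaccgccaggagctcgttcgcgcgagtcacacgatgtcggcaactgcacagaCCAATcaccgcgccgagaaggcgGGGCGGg
ACLY: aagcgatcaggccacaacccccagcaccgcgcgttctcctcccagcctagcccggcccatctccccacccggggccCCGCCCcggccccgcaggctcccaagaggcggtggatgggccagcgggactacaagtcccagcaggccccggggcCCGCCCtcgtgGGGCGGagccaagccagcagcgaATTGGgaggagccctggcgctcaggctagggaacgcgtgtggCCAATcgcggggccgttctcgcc

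The NF-Y motif was found in 20 of 29 members (69.0%), against 39.7% of all 27305 gene symbols with a window. Among enzymes of the mevalonate and sterol steps it was found in 13 of 15 (86.7%), with the most matches, 5, in MVK and NSDHL. The NSDHL matches at positions -113 and -110, on opposite strands, overlap each other. The Sp1 motif was found in 28 of 29 members (96.6%), against 48.3% of all symbols. The sterol element was found in 1 of 29 members (3.45%), against 1.39% of all symbols. The set of all symbols was not limited to protein-coding or measured genes. The members are protein-coding and nearly all were measured, so these shares compare unlike sets. Whether the motif shares are particular to the members was not tested. The 20 measured members with the NF-Y motif had a median log2 difference of -0.20, and the 7 measured members without the NF-Y motif one of -0.15. A match of letters is a description and not a binding site, and a window without a match says only that these letters are not in it.

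**Figure D2:**
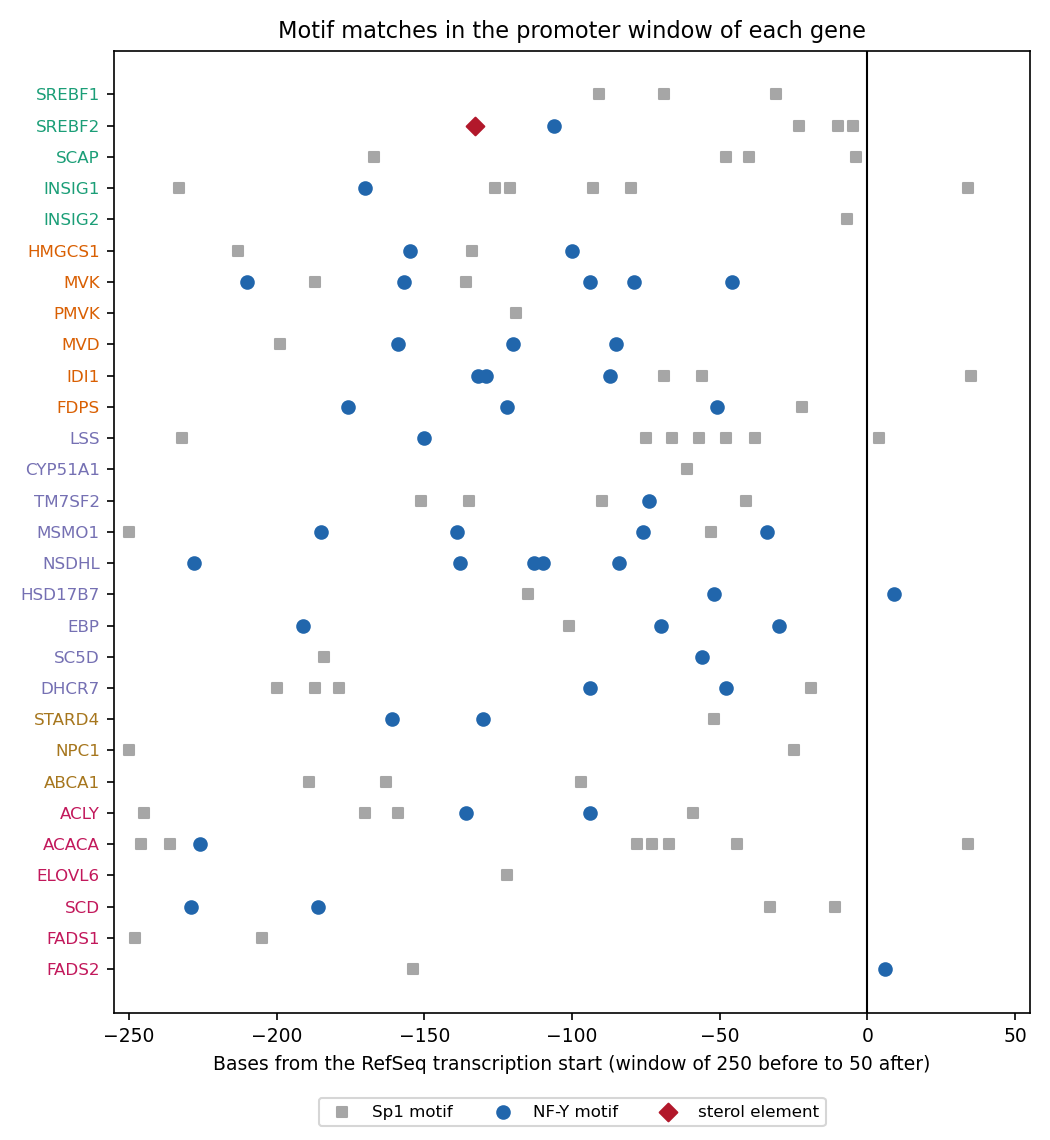
Position of each motif match (leftmost base) relative to the RefSeq transcription start for the 29 members with a window, 1 window per gene (the one with most matches), gene names coloured by role. NF-Y motifs crowd the windows of MVK, NSDHL and MSMO1, and the single diamond of the sterol element lies at position -133 in SREBF2.

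The regulators of the sterol response set the output of both pathways. Their transcripts stood lower with JNJ-7706621 in 4 of 5 genes, with a median log2 difference of -0.30. SREBF2, which encodes the SREBP that favours cholesterol genes, stood at 17.3 FPKM with DMSO and 12.6 FPKM with JNJ-7706621, a ratio of 0.726 (0.687 to 0.767). SREBF1, whose products favour fatty acid genes, stood at 25.1 and 20.3 FPKM, a ratio of 0.807 (0.773 to 0.842). Transcripts of both factors were thus lower, by amounts beyond counting error. SREBF2 lay lower than all but 12.7% of measured genes in its difference and SREBF1 lower than all but 21.2%. The promoter of SREBF2 held the sterol element printed above, and all 5 regulators had the Sp1 motif.

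SCAP, the escort of the SREBPs, stood at 7.03 FPKM with DMSO and 6.24 FPKM with JNJ-7706621, a ratio of 0.888 (0.811 to 0.972). INSIG1, the retention protein that is itself a target of SREBP, stood at 9.59 and 6.20 FPKM. Its ratio of 0.646 (0.578 to 0.722), on 818 and 516 reads, was the lowest of the regulators. Its log2 difference of -0.56 missed the 1.5-fold rule with the pseudocount of 1 although its FPKM ratio lies past it. INSIG2, the paralog of INSIG1 that is less tied to SREBP, stood at 3.26 and 3.30 FPKM, a ratio of 1.01 (0.858 to 1.19). The 2 INSIG transcripts therefore differed in their ratios, and INSIG1 stood 2.94 times as high as INSIG2 with DMSO and 1.88 times as high with JNJ-7706621.

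The enzymes from acetyl-CoA to farnesyl diphosphate had a median log2 difference of -0.12 over 7 measured genes, with 5 below 0 and 2 above. ACAT2, the thiolase that joins acetyl-CoA units, stood at 20.8 FPKM with DMSO and 23.5 FPKM with JNJ-7706621, a ratio of 1.13 (1.07 to 1.19). Exons of other genes overlap 52.3% of its exon length, the largest overlap being with SOD2-OT1, so its value is uncertain. HMGCS1, which makes HMG-CoA, stood at 10.1 and 8.59 FPKM, a ratio of 0.851 (0.790 to 0.916).

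The kinases and the decarboxylase that turn mevalonate into isopentenyl diphosphate all had ratios below 1. PMVK, the second kinase, had the largest difference of the group, at 33.4 and 25.2 FPKM, a ratio of 0.756 (0.678 to 0.843). MVD, the decarboxylase, stood at 5.23 and 3.97 FPKM, a ratio of 0.758 (0.667 to 0.861). MVK, the first kinase, stood at 2.85 and 2.57 FPKM, and its interval of 0.783 to 1.04 spanned 1. IDI1, the isomerase, stood at 17.7 and 16.1 FPKM, a ratio of 0.913 (0.853 to 0.977). FDPS, which makes farnesyl diphosphate for both sterols and protein prenylation, went the other way, at 31.3 and 34.1 FPKM, a ratio of 1.09 (1.03 to 1.15). The annotation holds 8 FDPS pseudogenes, and together they had 24 and 28 reads, against 2720 and 2896 of FDPS.

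From squalene to cholesterol, 10 of 11 genes were measured, with a median log2 difference of -0.15, 7 below 0 and 3 above. DHCR7, which makes cholesterol in the last step of the Kandutsch-Russell route, was the member of this group with the lowest log2 difference, at -0.36. It stood at 22.2 FPKM with DMSO and 17.1 FPKM with JNJ-7706621, a ratio of 0.771 (0.723 to 0.823). MSMO1, which removes methyl groups at carbon C4, stood at 15.5 and 12.4 FPKM, a ratio of 0.802 (0.730 to 0.880). SQLE, squalene epoxidase and a main control point of the late pathway, stood at 14.6 and 11.9 FPKM, a ratio of 0.816 (0.755 to 0.882). LSS, which closes the sterol rings, stood at 3.32 and 2.74 FPKM, a ratio of 0.824 (0.726 to 0.934). These 4 genes and FDFT1 had intervals below 1, and FDFT1, squalene synthase, was the nearest to 1 of them with a ratio of 0.931 (0.876 to 0.989).

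Other enzymes of the same stretch showed no difference beyond counting error or a higher level. NSDHL and EBP, a decarboxylating dehydrogenase and an isomerase encoded on the X chromosome, had ratios of 1.02 (0.872 to 1.20) and 1.02 (0.849 to 1.23). SC5D, the lathosterol desaturase, had a ratio of 0.907 (0.790 to 1.04), and TM7SF2, a sterol C14 reductase, one of 0.776 (0.597 to 1.01) on 140 and 106 reads. HSD17B7, a sterol ketoreductase that also acts on steroid hormones, was the 1 gene from squalene to cholesterol with an interval above 1. It stood at 1.72 FPKM with DMSO and 2.49 FPKM with JNJ-7706621, a ratio of 1.45 (1.20 to 1.75) on 192 and 271 reads. Its 2 annotated pseudogenes had 26 and 47 reads together.

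CYP51A1, the lanosterol demethylase, was listed at 0.606 and 0.323 FPKM, on 50 and 26 reads, with a ratio of 0.533 (0.318 to 0.872). Exons of other genes cover 83.2% of its exon length, the largest overlap being with AC000120.2, which was listed at 0 in both libraries. What became of reads in the shared exons was not tested, so the level of CYP51A1 is uncertain. It stood far under its neighbours in the pathway, LSS at 3.32 FPKM and MSMO1 at 15.5 FPKM with DMSO.

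**Figure D3:**
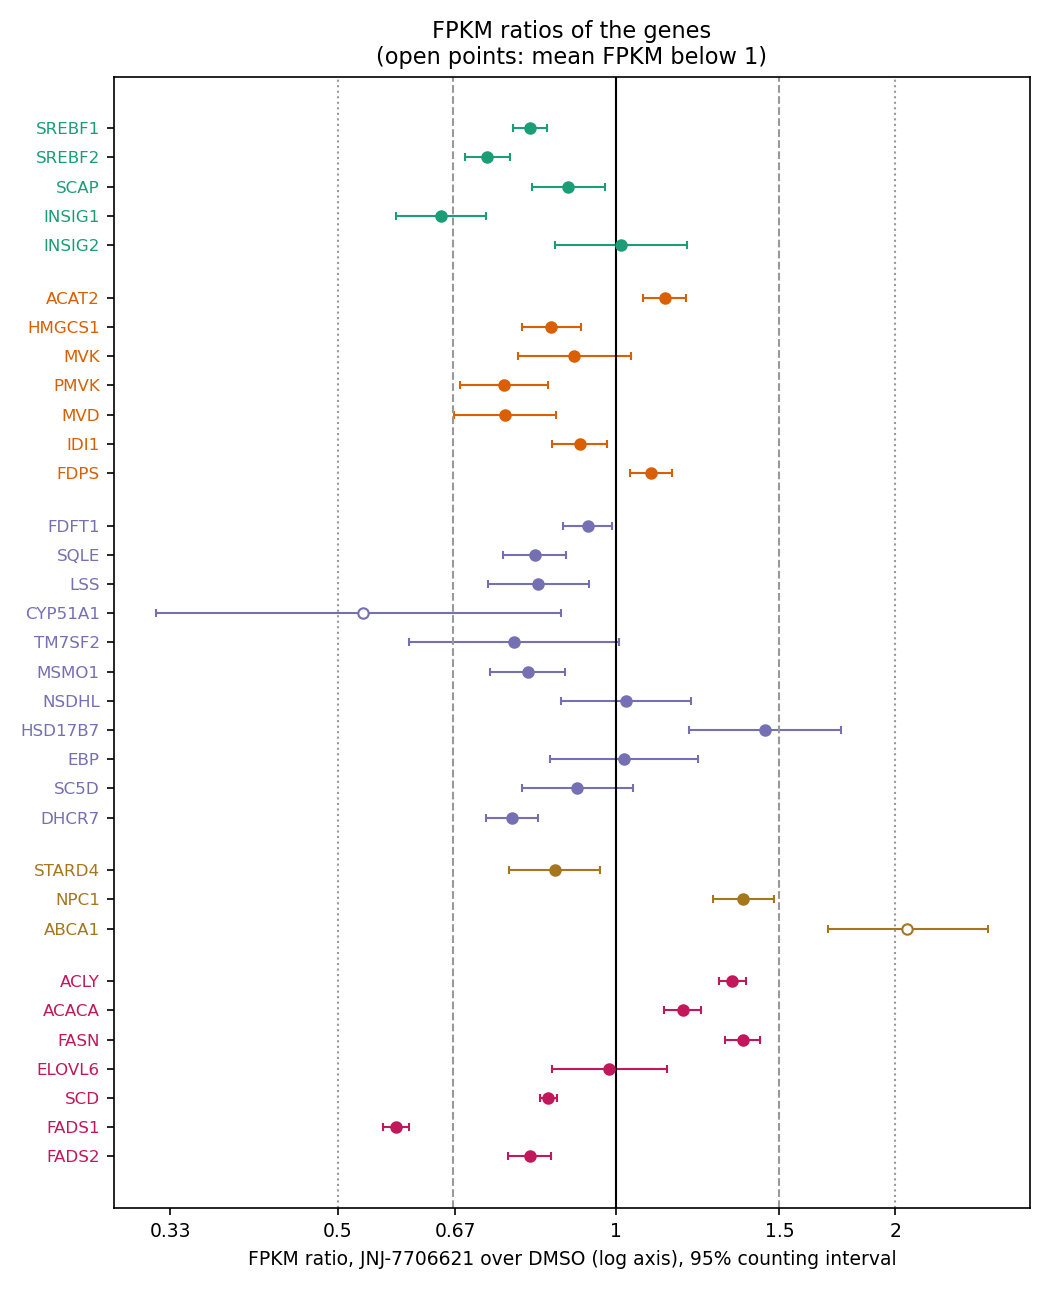
FPKM ratio of each gene on a log axis with its 95% counting interval, coloured by role; open points are the 2 genes with a mean below 1 FPKM, dashed lines mark 1.5-fold and dotted lines 2-fold. All regulators but INSIG2 and most sterol enzymes lie left of 1. ACAT2, FDPS, HSD17B7, NPC1, ABCA1, ACLY, ACACA and FASN lie right of it with intervals that do not reach 1.

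The sterol transporters did not share a direction. STARD4, which carries sterol through the cytosol and is a target of SREBP, stood at 5.11 FPKM with DMSO and 4.39 FPKM with JNJ-7706621, a ratio of 0.859 (0.767 to 0.961). NPC1, which exports cholesterol from lysosomes, stood at 5.14 and 7.05 FPKM, a ratio of 1.37 (1.27 to 1.48). ABCA1, the pump that hands cholesterol to lipoproteins outside the cell and a target of the oxysterol receptor LXR, stood at 0.581 and 1.20 FPKM. Its ratio was 2.06 (1.69 to 2.52), on 153 and 308 reads, the highest of all 33 members. With a mean below 1 FPKM it was outside the measured genes, and its log2 difference with the pseudocount of 1 was 0.48.

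Among the members, fatty acid genes split between synthesis and desaturation, with a median of -0.02 over 7 measured genes. The desaturases FADS3 and SCD5, which are not members, stood higher and are given below. The member enzymes that make palmitate were all higher with JNJ-7706621. ACLY, which makes cytosolic acetyl-CoA from citrate, stood at 50.4 FPKM with DMSO and 67.2 FPKM with JNJ-7706621, a ratio of 1.33 (1.29 to 1.38). FASN, the fatty acid synthase, stood at 15.9 and 21.7 FPKM, a ratio of 1.37 (1.31 to 1.43). ACACA, the carboxylase that makes malonyl-CoA, stood at 11.8 and 13.9 FPKM, a ratio of 1.18 (1.13 to 1.23). Their log2 differences of 0.41, 0.43 and 0.22 were higher than those of 84.9%, 86.0% and 72.0% of measured genes and did not pass the 1.5-fold rule. ELOVL6, which lengthens palmitate to stearate, stood at 2.32 and 2.28 FPKM, and its interval of 0.852 to 1.13 spanned 1.

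The member desaturases FADS1, FADS2 and SCD, which put double bonds into fatty acids, were lower with JNJ-7706621. FADS1, the delta-5 desaturase of polyunsaturated fatty acids, was the 1 member past the 1.5-fold rule. It stood at 42.7 FPKM with DMSO and 24.7 FPKM with JNJ-7706621, on 10200 and 5763 reads. The ratio was 0.579 (0.560 to 0.598) and the log2 difference -0.76, and 3.19% of measured genes had a lower one. FADS2, the delta-6 desaturase that acts before FADS1, stood at 12.8 and 10.3 FPKM, a ratio of 0.806 (0.765 to 0.850). FADS1 had a lower ratio than its partner, and its level went from 3.34 to 2.40 times that of FADS2.

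FADS1 (chr11:61799625-61829318, minus strand) and FADS2 (chr11:61792980-61867354, plus strand) overlap in the GENCODE 29 annotation of GRCh38, and exons of other genes cover 5.57% and 4.89% of their exon lengths. Their neighbours on this chromosome, chosen for position, did not share a direction. FEN1, which trims DNA flaps in replication, had a ratio of 1.31 (1.23 to 1.40), and TMEM258, a subunit of the N-glycosylation machinery, one of 0.713 (0.648 to 0.783). FADS3, a paralog of the FADS genes, stood at 1.54 and 2.58 FPKM, a ratio of 1.68 (1.42 to 1.99), opposite in direction to FADS1 and FADS2.

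SCD, which makes oleate from stearate, was the most abundant member. At 159 FPKM with DMSO and 135 FPKM with JNJ-7706621 it had a mean level above 98.1% of measured genes, and its ratio of 0.845 (0.827 to 0.862) rested on 19537 and 16106 reads. With FASN higher and SCD lower, the level of SCD went from 10.1 to 6.20 times that of FASN. Summed over the 31 measured members, the levels came to 580 FPKM with DMSO and 528 FPKM with JNJ-7706621, and SCD alone made up the largest part of both sums.

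**Figure D4:**
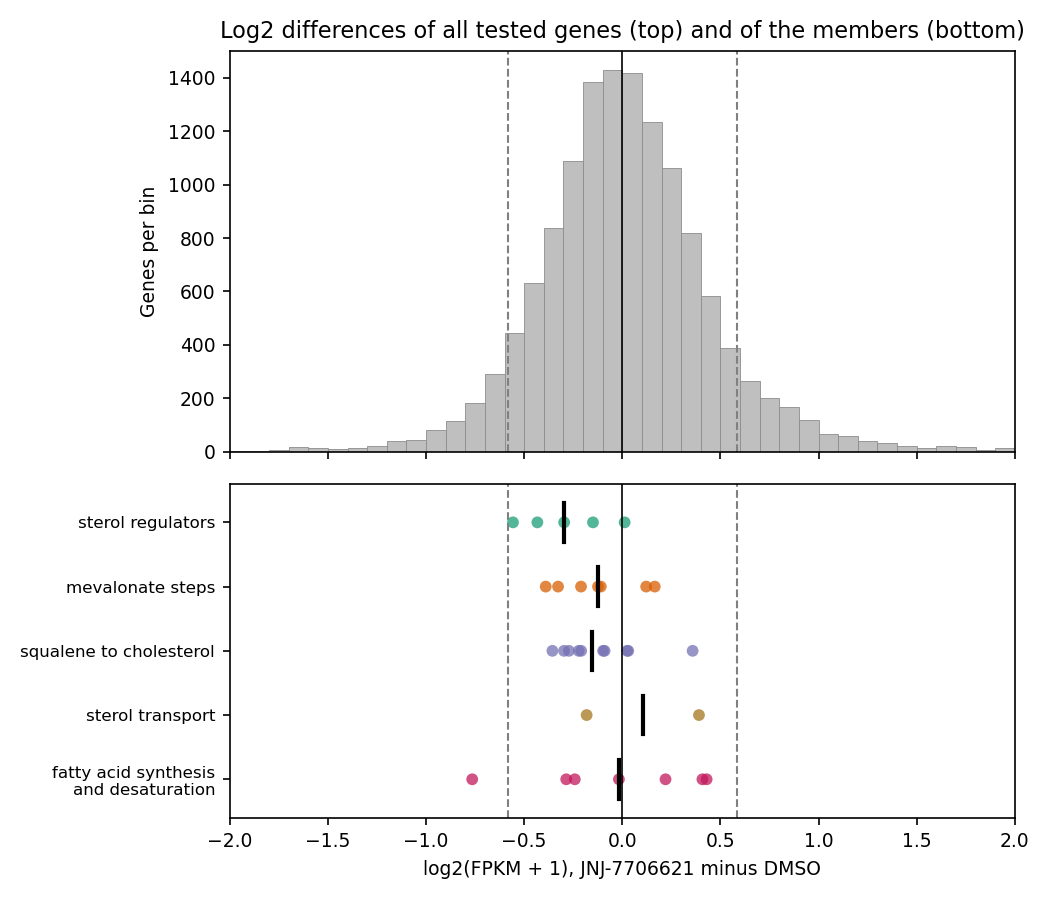
Top, number of genes per bin of 0.1 in log2 difference for all 13241 measured genes (axis shown from -2 to 2); bottom, the 31 measured members as points by role, with black bars for the group medians and dashed lines at the 1.5-fold rule. All members but FADS1 lie between the dashed lines, and the medians run from -0.30 for the regulators to 0.10 for the 2 measured transporters.

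Other genes of lipid metabolism were compared by list. In SREBP processing and sterol sensing, 13 of 17 genes lay below 0 (50.4% of all measured genes did), with a median of -0.11. Of the 17, 1 was past the 1.5-fold rule upward and 2 downward, against 8.53% and 6.77% of all measured genes. RNF145, a ubiquitin ligase of sterol sensing in the endoplasmic reticulum, stood at 34.6 FPKM with DMSO and 53.4 FPKM with JNJ-7706621, a ratio of 1.55 (1.48 to 1.61). RNF139, a related ligase, stood at 31.3 and 20.4 FPKM, a ratio of 0.652 (0.607 to 0.700). The E-box factor USF2, which acts at fatty acid synthase promoters, stood at 17.8 and 11.2 FPKM, a ratio of 0.627 (0.584 to 0.672). The NF-Y subunits NFYA and NFYB had log2 differences of -0.45 and -0.49, and SP1 one of -0.40, none past the rule. Another NF-Y subunit, NFYC, had a ratio of 0.930, and its interval of 0.835 to 1.04 spanned 1.

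LXR and oxysterol response genes lay below 0 in 8 of 8 measured cases, against 50.4% of all measured genes, with a median of -0.39. The list includes the receptor genes NR1H2, NR1H3, RXRA and RXRB beside genes that respond to LXR. LPCAT3 had a ratio of 0.993, its interval of 0.924 to 1.07 spanned 1, and other genes overlap 65.6% of its exon length. Of the 8, 1 was past the 1.5-fold rule downward, against 6.77% of all. SMPDL3A, a phosphodiesterase induced by LXR, stood at 1.86 and 0.466 FPKM, a ratio of 0.251 (0.155 to 0.392) on 102 and 25 reads. NR1H2, which encodes LXR beta, had a ratio of 0.648 (0.593 to 0.708), and ABCG1, another sterol pump under LXR, one of 0.786 (0.701 to 0.880). ABCA1, at 2.06, thus differed in direction from the measured genes of this list. CH25H and CYP27A1, which make oxysterols, were listed at 0 in both libraries.

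Genes of cholesterol storage and transport went both ways, with 8 of 14 above 0, against 49.6% of all measured genes, and a median of 0.10. Of the 14, 1 was past the 1.5-fold rule upward and 2 downward, where the shares over all genes were 8.53% and 6.77%. SCARB1, the receptor for high-density lipoprotein, stood at 7.79 FPKM with DMSO and 14.6 FPKM with JNJ-7706621, a ratio of 1.87 (1.75 to 2.00). SOAT1, which esterifies cholesterol for storage, stood at 23.6 and 13.4 FPKM, a ratio of 0.569 (0.539 to 0.599). OSBPL8, a lipid transfer protein of the endoplasmic reticulum, was also past the 1.5-fold rule downward, with a ratio of 0.579 (0.520 to 0.644). NCEH1, which frees cholesterol from its esters, had a ratio of 1.41 (1.31 to 1.51), opposite to SOAT1, and did not pass the rule.

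In the isoprenoid branch, 1 of 11 measured genes passed the 1.5-fold rule upward, a share near the 8.53% of all measured genes. PDSS1, which builds the side chain of coenzyme Q, stood at 8.70 and 18.3 FPKM, a ratio of 2.11 (1.86 to 2.38), while its partner subunit PDSS2 had a ratio of 0.717 (0.640 to 0.803). The list's median was 0.03. Among 24 measured genes of other fatty acid and lipid steps, 15 lay above 0, against 49.6% of all measured genes, with a median of 0.12. Of the 24, 3 passed the rule upward and 0 downward, against 8.53% and 6.77% of all. HACD3 and HSD17B12, a dehydratase and a ketoreductase of the cycle that lengthens fatty acids, had ratios of 1.62 (1.56 to 1.69) and 1.61 (1.53 to 1.70). ELOVL7, an elongase of that cycle, stood at 3.69 and 6.46 FPKM, a ratio of 1.75 (1.54 to 1.99). TECR, which does the last step of the cycle, had a ratio of 0.775 (0.712 to 0.843), so the enzymes of the cycle did not share a direction.

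ELOVL2, ACSL5 and SCD5, from the 8 genes of that list below a mean of 1 FPKM, are named after their values were seen. The share of all genes below 1 FPKM with ratios as high was not computed, so these values are description only. ELOVL2, an elongase of polyunsaturated fatty acids, had 31 and 130 reads, a ratio of 4.30 (2.89 to 6.58). ACSL5, which activates fatty acids, had a ratio of 2.87 (2.07 to 4.04), and SCD5, a paralog of SCD, one of 2.28 (1.64 to 3.20). SCD5 thus stood higher and SCD lower with JNJ-7706621, with SCD5 at 0.546 and 1.24 FPKM.

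**Figure D5:**
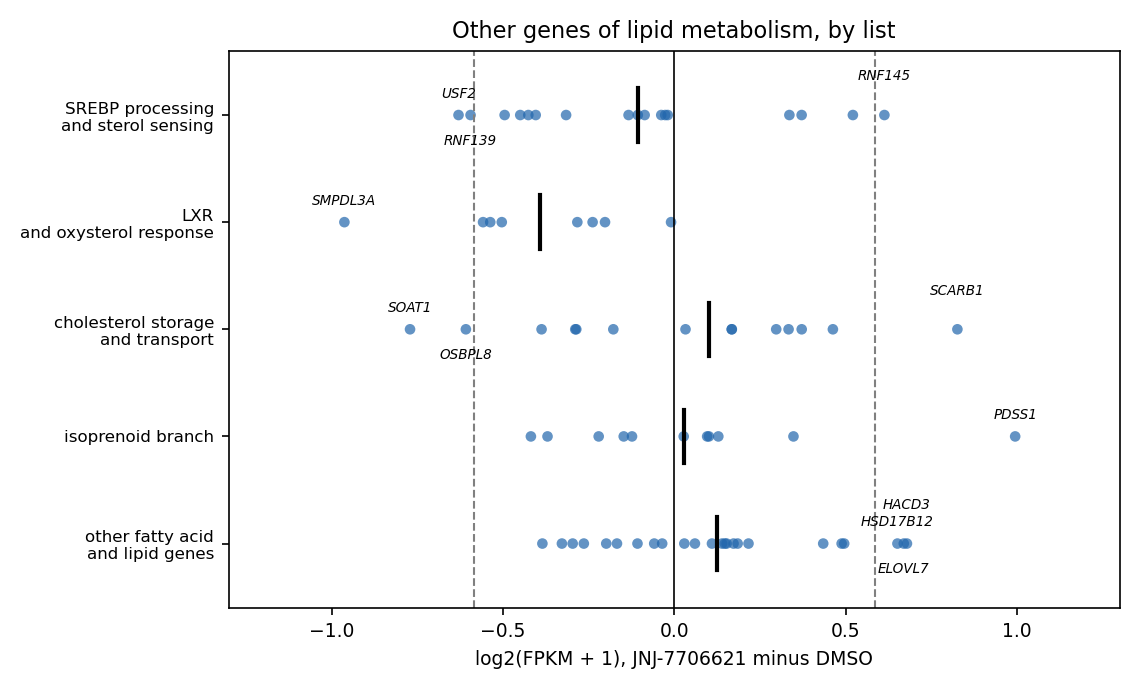
Log2 difference of the measured genes of 5 further lists, 1 point per gene, with black bars for the list medians, dashed lines at the 1.5-fold rule and names for genes past it. The LXR list lies wholly at or below 0, and PDSS1, SCARB1 and 3 genes of fatty acid elongation lie furthest right.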

How the data were processed

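RNA sequencing of 1 DMSO and 1 JNJ-7706621 library was used, grouped by the sample labels. The authors deposited FPKM values per gene. The submitters' processing notes name hg38 and edgeR without a version or role. Sources used here do not name the aligner, counter, annotation release or use of strand, so reads of overlapping genes cannot be told apart. A further 2 columns of values are named like second libraries of the same groups but match no sample label, so they were not analysed here, and the lack of replicates follows from leaving them out.

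Library totals were the value most often given by genes with 1 read, from FPKM and union exon lengths of GENCODE 29. Reads were taken as whole within 0.0001, with the annotated exon length (12 members) or the nearest length that gave whole reads in both libraries (21 members). Intervals are exact 95% Clopper-Pearson intervals on the recovered reads. Without molecular identifiers, reads are not independent molecules. With 1 library per group no test was run. The rules of size were log2 differences of 1 and 0.58, at a pseudocount of 1 and a mean FPKM of at least 1.

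The members and lists were chosen with earlier results of these data known. Regulators, the members past the 1.5-fold rule and the 3 largest differences of each role were to be given in full, and up to 5 genes past the 1.5-fold rule from each further list, with ACTB and GAPDH for reference; other genes were chosen after their values were seen. Alternatives covered the pseudocount, the filter, scaling, and a trend with exon length and GC content. The calculations were tested on simulated data. Python 3.11.15, numpy 2.4.6, pandas 2.3.3, scipy 1.17.1 and matplotlib 3.10.9 were used.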

Additional observations from a re-analysis of the deposited data

How the results depend on the processing

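Counts of members past the 2-fold rule stayed at 0 in both directions under the 8 alternatives. Members past the 1.5-fold rule downward numbered 2 rather than 1 with pseudocounts of 0.1 and 0.5, after rescaling to a sum of 1000000, with the FPKM ratio without a pseudocount, and with the exon length and GC trend taken off; the last pair of settings was chosen after the data were seen. The second gene was INSIG1 in all 5 settings. Of all genes in these settings, in the same order, 11.1%, 8.87%, 10.6%, 11.6% and 5.06% were past the rule downward. The share of members was above that of all genes only with the trend taken off. After rescaling, 1 member, ABCA1, was past the rule upward, against 11.5% of all genes. The median of the transporters, 0.10 over 2 genes, was 0.39 without the filter and with a mean of at least 5 FPKM, and 0.41 after rescaling, since ABCA1 enters or STARD4 leaves. The fatty acid median of -0.02 was 0.054 with the trend taken off. The other 70 of 80 counts and medians moved by no more than 1.5 times (counts) or by no more than counting error (medians). Of 31 measured members, 25 had 1 sign under every setting, and EBP, ELOVL6, INSIG2, NSDHL, SC5D and STARD4 did not. The trend accounted for 7.80% of the variance over 10162 protein-coding genes. No paired analysis was possible because 1 library per group was analysed, with the 2 columns that match no sample label left out.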
